A study of Mus musculus with 2 samples.

Results

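A set of 9 genes that process RNA-DNA hybrids or carry the DNA damage signal, namely Aqr, Top1, Rnaseh1, Rnaseh2a, Rnaseh2b, Atm, Chek2, Atr and Chek1, were followed by symbol through single-cell RNA profiles of mouse bone marrow. They were 9 of the 32285 genes in the gene list of the files, and all 9 were detected. The marrow came from 2 mice, both 2 months old, with 1 library each. One mouse was labelled WT, and by the breeding scheme of the study its controls were littermates with floxed Ddx41, no VavCre and intact cGas, though the label does not say whether this mouse was one of them. The other was labelled DKO and carried VavCre:Ddx41 fl/fl together with cGAS-/-. Ddx41, a helicase that unwinds G-quadruplexes and RNA-DNA hybrids, was thus floxed throughout the mouse for deletion in cells that express VavCre. The sensor of cytosolic DNA, cGAS, was removed in the germline. VavCre acts in blood cells and, as the study notes, also in endothelial cells and oocytes. The 2 libraries differ in both genes at once, so an effect of Ddx41 loss and an effect of cGAS loss cannot be told apart.

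An R-loop forms when a transcript pairs again with its template and leaves the other DNA strand single. Ribonuclease H1 (Rnaseh1) and the ribonuclease H2 complex (catalytic subunit Rnaseh2a, structural subunit Rnaseh2b) cut the RNA of such hybrids, Aqr (aquarius) is a helicase of the spliceosome that limits them, and Top1 (topoisomerase I) relaxes the supercoils behind and ahead of polymerases on which they form. Where replication forks stall, the kinase Atr is recruited and activates the kinase Chek1, and at double-strand breaks Atm activates Chek2. Red cell precursors divide rapidly before they condense and expel the nucleus, and DNA replication and repair genes are expressed at that time. The comparison asks whether the mRNA of these enzymes and kinases differed between the libraries in any marrow cell class.

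After filtering, 18623 WT cells with 118530822 unique molecular identifiers (UMIs, each standing for 1 captured mRNA molecule) and 13729 DKO cells with 114830668 UMIs were kept. The median was 4874 UMIs per WT cell and 6904 per DKO cell. Hemoglobin genes held 28.5% of the WT and 36.3% of the DKO UMIs. Clusters were named from marker genes into 13 classes, each called "X-like", and between 6 of 8 and all of each class's markers were raised in it in both libraries, while 2 clusters stayed unnamed. Of these 2, 1 cluster (743 WT and 291 DKO cells) had 8 of 8 cKit+ progenitor markers raised. It stayed unnamed because its 10 leading genes held 0 of these markers and 1 of another class. The cKit+ progenitor-like class is therefore 1 other cluster alone (289 and 116 cells), led by Elane, Prtn3 and Ms4a3. Xcr1 had no UMI in dendritic-like cells of either library, and Flt3 had none in cKit+ progenitor-like and Rspo2 none in late erythroid-like cells of the DKO library. A total of 75 cell barcodes occurred in both libraries. A level is given in UMIs of the gene per 1000000 UMIs of the class (CPM) with its exact Poisson 95% interval, and a difference is the log2 ratio of DKO over WT with 1 count added and its exact conditional binomial 95% interval. These intervals cover counting error only. With 1 library per genotype no spread between mice was measured and no test between genotypes was made. UMIs come from the 3' end of transcripts, so levels are compared between classes and libraries and not between genes.

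Ddx41 itself was at 20.2 CPM (2398 UMIs) in WT and 8.0 CPM (919 UMIs) in DKO cells, a log2 ratio of -1.34 (interval -1.45 to -1.23), and the ratio was below 0 in 13 of 13 classes. Cgas was at 13.6 CPM in WT and 7.25 CPM in DKO cells (log2 -0.90, interval -1.03 to -0.78). Which exons the 2 alleles lack is not given in the sources used here, and a 3' tag outside the deleted part checks nothing.

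The kinases Atm and Atr and the helicase Aqr had their highest levels in T or NK cell-like and basophil or mast-like cells. Atm stood at 55.1 CPM (interval 46.9 to 64.2) in WT and 61.0 CPM (50.4 to 73.2) in DKO T or NK cell-like cells, at 44.6 and 53.4 CPM in basophil or mast-like cells, at 42.7 and 48.7 CPM in B cell-like cells and at 36.8 and 52.8 CPM in dendritic-like cells. The same kinase was at 2.23 CPM (43 UMIs) in WT and 3.47 CPM (66 UMIs) in DKO neutrophil-like cells. Atr was at 40.4 CPM in WT and 49.6 CPM in DKO basophil or mast-like cells, at 38.2 and 42.6 CPM in T or NK cell-like cells and at 33.8 and 36.2 CPM in B cell-like cells, and it was at 6.17 and 9.88 CPM in neutrophil-like cells. In stromal-like cells Atr had 20 WT and 23 DKO UMIs, which gave 18.4 and 47.2 CPM. Aqr was at 58.1 CPM in WT and 71.0 CPM in DKO T or NK cell-like cells, at 55.6 and 63.3 CPM in basophil or mast-like cells and at 51.1 and 59.2 CPM in B cell-like cells. Neighbours among these leading classes had overlapping counting intervals, so their ranks are not resolved.

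With hemoglobin genes in the total, ribonuclease H2, Chek2 and Top1 were highest in early erythroid-like cells. Rnaseh2b was at 102 CPM (interval 97.2 to 107) in WT and 88.1 CPM (84.4 to 92.0) in DKO early erythroid-like cells, above cKit+ progenitor-like cells at 70.1 and 62.2 CPM, and the intervals of these neighbours did not overlap in either library. Rnaseh2a showed the same leading class, at 69.6 CPM in WT and 58.2 CPM in DKO cells, and basophil or mast-like cells came next at 53.3 and 35.1 CPM. Chek2 was at 72.5 CPM in WT and 69.9 CPM in DKO early erythroid-like cells and at 44.4 and 44.6 CPM in basophil or mast-like cells. Chek1 was at 26.6 and 24.8 CPM in basophil or mast-like cells, 21.7 and 23.6 CPM in early erythroid-like cells and 20.4 and 27.1 CPM in cKit+ progenitor-like cells, values whose neighbours overlapped. Among the named classes, Rnaseh1 was highest in cKit+ progenitor-like cells, at 23.7 CPM in WT and 21.2 CPM in DKO cells. Basophil or mast-like cells (22.7 and 18.3 CPM) lay inside the same intervals. Early erythroid-like cells also led for Top1, with 374 CPM in WT and 369 CPM in DKO cells, and the neighbouring class did not overlap in either library. Without hemoglobin in the total this order changed for Top1. Late erythroid-like cells were then above early ones, at 734 against 528 CPM in WT and 852 against 556 CPM in DKO.

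**Figure D1:**
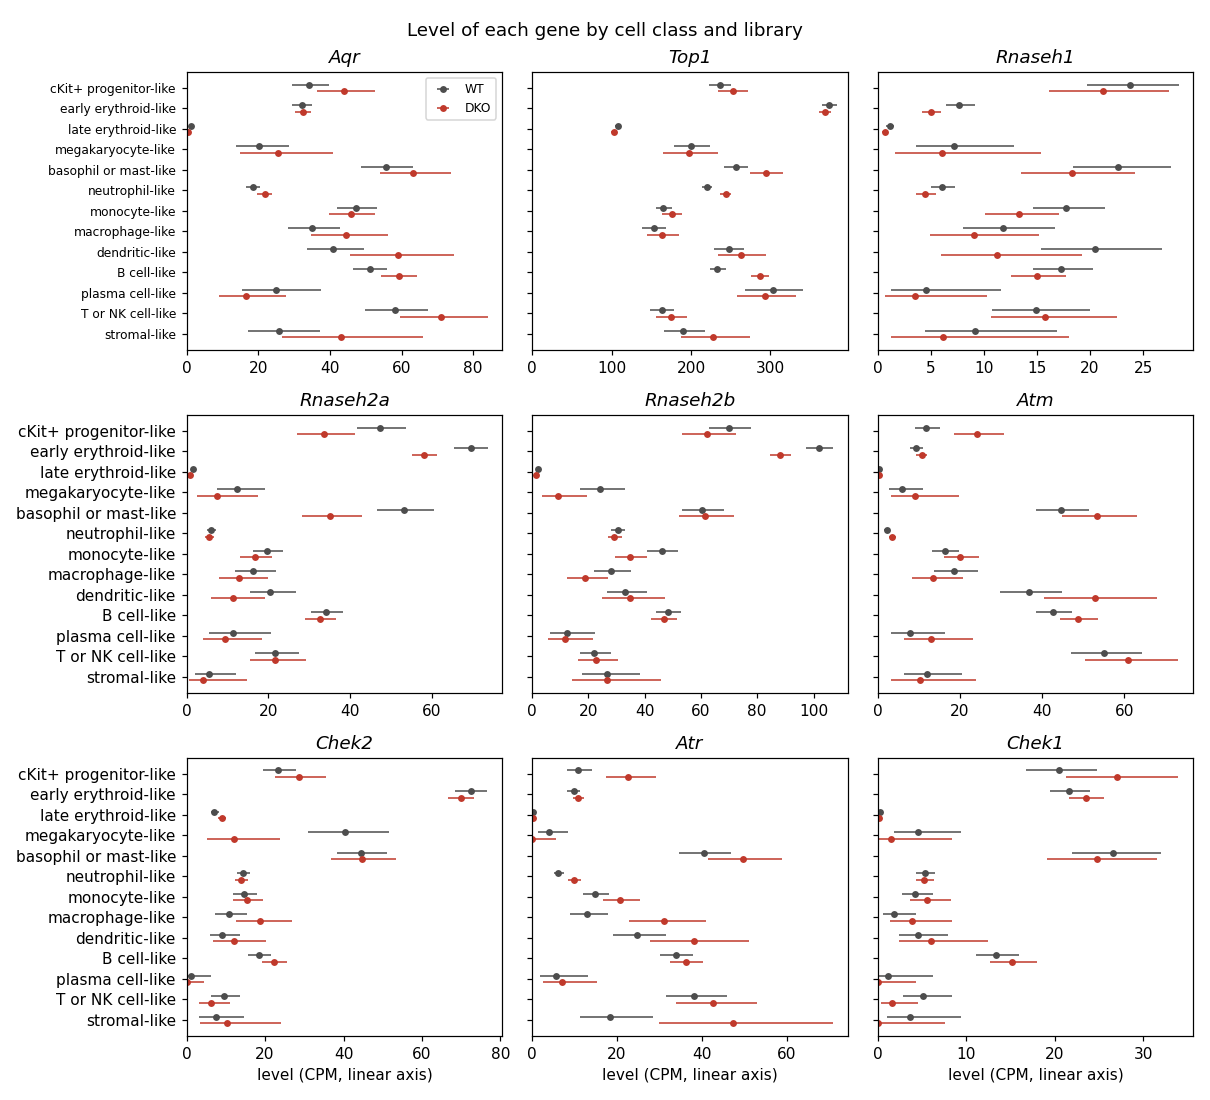
Level of each gene in CPM (linear horizontal axis) in 13 cell classes, with WT in grey and DKO in red, and bars for the exact Poisson 95% interval of counting error. Atm, Atr and Aqr peak in T or NK, basophil or mast and B cell-like cells, Rnaseh2a, Rnaseh2b, Chek2 and Top1 in early erythroid-like cells, and late erythroid-like cells lie near 0 for all but Top1 and Chek2. Hemoglobin is part of the total, and without it Top1 is highest in late erythroid-like cells.

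Late erythroid-like cells held little mRNA of most of these genes. In WT and DKO late erythroid-like cells, respectively, Atm was at 0.273 and 0.368 CPM, Atr at 0.307 and 0.227 CPM, Chek1 at 0.307 and 0.113 CPM, Rnaseh1 at 1.12 and 0.680 CPM, and Rnaseh2b at 1.94 and 1.25 CPM. Top1 remained at 108 CPM (3182 UMIs) in WT and 103 CPM (3624 UMIs) in DKO cells, and Chek2 at 7.09 CPM (208 UMIs) and 9.06 CPM (320 UMIs). Hemoglobin mRNA held 85.2% of the WT UMIs of this class, which lowers the CPM of every other gene. With hemoglobin genes left out of the total, late erythroid-like cells held 734 CPM of Top1 in WT and 852 CPM in DKO, and 48.0 and 75.2 CPM of Chek2. Early erythroid-like cells held 528 and 556 CPM of Top1 on that scale. WT barcodes with at most 100 UMIs, which hold free RNA rather than a cell, had 239 CPM of Top1 and 34.7 CPM of Chek2 without hemoglobin, below the late erythroid levels. For the 7 other members the free RNA was above them, with 18.7 CPM of Rnaseh1, 19.0 CPM of Atm and 48.5 CPM of Rnaseh2b against 7.62, 1.85 and 13.2 CPM in WT late erythroid-like cells. The part of free RNA in these few UMIs was not tested, and empty droplets of the DKO library were not analysed here.

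To follow these genes along red cell maturation, the erythroid-like cells were divided by the share of hemoglobin in their UMIs. Chek1 went from 36.4 CPM in WT and 45.2 CPM in DKO cells with under 15% hemoglobin, through 24.3 and 30.1 CPM at 15 to 40%, to 1.99 and 4.13 CPM at 40 to 75%. Rnaseh2b was at 130 and 117 CPM in the first stage, 131 and 122 CPM in the second, 34.0 and 41.5 CPM in the third and 2.19 and 2.29 CPM at 75 to 90% hemoglobin. Chek2 stayed longer than Chek1, with 83.9 and 79.7 CPM in the first stage, 90.6 and 93.1 CPM in the second and still 46.2 and 54.6 CPM in the third. Top1 was still high in the third stage, with 371, 405 and 424 CPM in WT and 408, 405 and 371 CPM in DKO cells. It was at 83.1 CPM in WT and 151 CPM in DKO cells at 75 to 90% hemoglobin and at 18.1 and 20.9 CPM at 90% or more.

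Since the stages are set by hemoglobin, which dilutes all other genes, the course was also read without hemoglobin genes in the total. On that scale Top1 was highest in the third stage, at 387, 565 and 1030 CPM in WT and 424, 568 and 884 CPM in DKO cells over the first 3 stages, then 592 and 1002 CPM at 75 to 90% and 216 and 283 CPM at 90% or more. Chek2 was at 87.5, 127 and 112 CPM in WT and 82.8, 130 and 130 CPM in DKO cells over the first 3 stages, with no drop below the first. Rnaseh2b was at 136, 182 and 82.7 CPM in WT and 122, 172 and 98.9 CPM in DKO cells, and Chek1 at 38.0, 33.9 and 4.83 CPM in WT and 46.9, 42.2 and 9.84 CPM in DKO cells. Chek1 and ribonuclease H2 were thus lower by the third stage on both scales, while Chek2 and Top1 were not lower there than in the first stage once hemoglobin was left out.

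In the first stage, where the hemoglobin share was alike (median 3.07% in WT and 3.01% in DKO cells), both apical kinases were higher in DKO. Atm was at 19.3 CPM (124 UMIs) in WT and 28.1 CPM (211 UMIs) in DKO cells, a log2 ratio of 0.54 (interval 0.22 to 0.88), and Atr at 19.8 CPM (127 UMIs) and 29.2 CPM (219 UMIs), a log2 ratio of 0.56 (interval 0.24 to 0.89). Both lay just under 1.5-fold, and the median of all genes in this stage was 0.08. Rnaseh1 was at 14.9 and 12.4 CPM there (log2 -0.27, interval -0.70 to 0.16), and at 3.11 and 1.53 CPM at 40 to 75% hemoglobin on 25 and 20 UMIs. The ratios of Atm and Atr were below 0 at 15 to 40% hemoglobin, with intervals that include 0. Atm was there at log2 -0.32 (interval -1.20 to 0.56, 24 and 24 UMIs) and Atr at -0.64 (interval -1.60 to 0.27, 24 and 19 UMIs). At 40 to 75% Chek1 was the 1 member of 6 past 1.5-fold upward (log2 0.99, interval 0.23 to 1.96, 16 and 54 UMIs), as were 15.4% of all genes.

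Within the 75 to 90% stage, Top1 was 1.82-fold higher in DKO (log2 0.86, interval 0.77 to 0.96, 1636 and 1785 UMIs) and Chek2 2.87-fold higher (log2 1.52, interval 1.13 to 1.93, 85 and 147 UMIs). These were the 2 of 3 members with at least 50 UMIs there that passed 1.5-fold upward, among 23.0% of all genes tested in this stage, and the median log2 ratio of all genes was -0.11. Without hemoglobin the log2 ratios were 0.76 for Top1 and 1.42 for Chek2. The median hemoglobin share in this stage was 87.0% in WT and 87.2% in DKO cells. The WT library had 3574 cells in this stage and 1392 at 90% or more, while the DKO library had 1405 and 2606. The part of the cell make-up within the stage in these ratios was not tested.

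**Figure D2:**
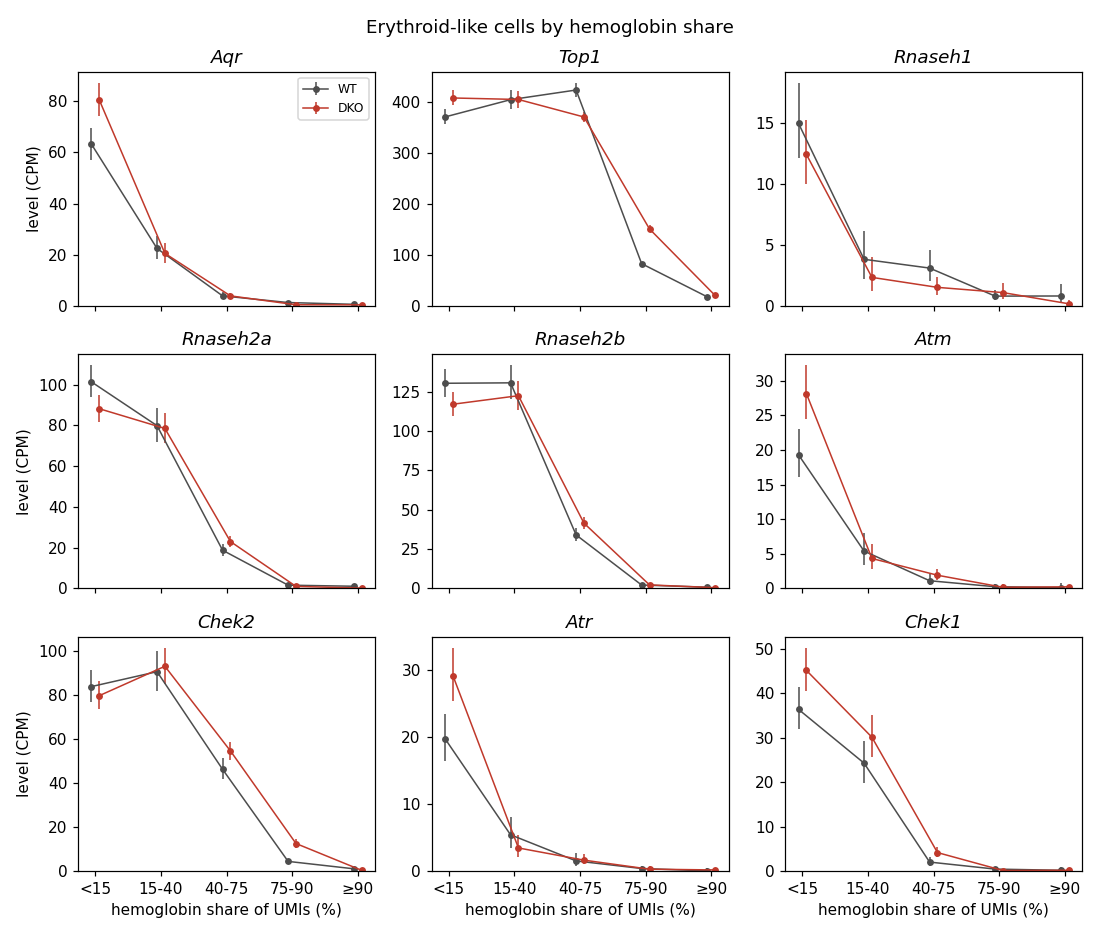
Level in CPM (vertical axis, from 0) of each gene in erythroid-like cells grouped by the hemoglobin share of their UMIs (horizontal axis, percent), WT in grey and DKO in red, with exact Poisson 95% intervals. Hemoglobin is part of the total here. On this scale Chek1, Rnaseh2a and Rnaseh2b drop by the 40 to 75% stage, Chek2 is at 46.2 and 54.6 CPM and Top1 at 424 and 371 CPM, while without hemoglobin Chek2 is at 112 and 130 CPM there and Top1 at 1030 and 884 CPM.

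Levels were then set apart by the cell cycle within each library. Among cells with at least 1000 UMIs outside hemoglobin genes, those were called cycling-high where 38 S and G2/M genes, none of them among the 9, held at least 0.5% of these UMIs, and the rest were called cycling-low. The levels in this comparison are CPM of UMIs without hemoglobin genes. In B cell-like cells, Chek1 was at 37.9 CPM in cycling-high and 1.85 CPM in cycling-low WT cells (log2 4.23, interval 3.42 to 5.45) and at 41.5 and 1.53 CPM in the DKO library (log2 4.61, interval 3.74 to 6.01). Rnaseh2b was at 109 and 21.5 CPM in WT (log2 2.33) and at 96.0 and 22.9 CPM in DKO cells (log2 2.06), Chek2 at 41.7 and 8.34 CPM (2.30) and at 45.7 and 11.1 CPM (2.03), and Rnaseh2a at 60.1 and 23.9 CPM (1.33) and at 56.1 and 22.7 CPM (1.30). Atm went the other way, with 35.8 CPM in cycling-high and 50.4 CPM in cycling-low WT cells (log2 -0.49, interval -0.84 to -0.16) and 40.2 and 59.4 CPM in DKO cells (log2 -0.55, interval -0.87 to -0.26). In both libraries, cycling-high B cell-like cells thus held a larger share of Chek1, Chek2 and ribonuclease H2 mRNA and a smaller share of Atm. This class pools clusters with Vpreb1, Vpreb3 or Ighd among their leading genes. Its cycling-high cells had a median of 7252 UMIs in WT and 11713 in DKO, against 2541.5 and 3611 in cycling-low cells. The parts of B cell stage and depth in these ratios were not tested.

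Neutrophil-like cells also held more of these mRNAs when cycling-high. Chek2 was at 38.3 CPM in cycling-high and 2.98 CPM in cycling-low WT cells (log2 3.65) and at 37.8 and 1.82 CPM in DKO cells (log2 4.32), and Rnaseh2b at 71.2 and 11.3 CPM (2.64) and at 75.8 and 5.63 CPM (3.73). Atm was here higher in cycling-high cells, at 4.45 against 1.24 CPM in WT and 8.33 against 1.04 CPM in DKO cells. Cycling-high cells made up 16.1% of the WT and 15.4% of the DKO neutrophil-like cells with enough UMIs. They had a median of 15637.5 UMIs in WT and 18401 in DKO, against 4995.5 and 5605 in cycling-low cells. The class pools clusters with Ltf, Retnlg or Fcnb among their leading genes, and the Fcnb cluster had a median of 16000 and 18813 UMIs. The parts of neutrophil stage and depth in these ratios were not tested. In cKit+ progenitor-like cells the intervals of Rnaseh2a, Rnaseh2b and Chek2 included 0 in both libraries, with Rnaseh2b at 73.1 and 68.1 CPM in WT and 64.4 and 61.4 CPM in DKO cells. Chek1 was lower in cycling-high WT progenitor-like cells (14.6 against 27.6 CPM, log2 -0.90, interval -1.53 to -0.32), and in the DKO library it was at 24.9 against 31.7 CPM (log2 -0.35, interval -1.04 to 0.36). Of the early erythroid-like cells, 89.3% in WT and 90.7% in DKO were cycling-high. Chek1 was at 32.2 against 8.13 CPM in WT (345 and 6 UMIs) and 36.7 against 7.57 CPM in DKO cells (550 and 4 UMIs). Top1 was lower in cycling-high early erythroid-like cells, at 521 against 666 CPM in WT (log2 -0.36, interval -0.49 to -0.22) and at 538 against 1085 CPM in DKO cells (log2 -1.01, interval -1.13 to -0.89). Hemoglobin held 27.7% of the UMIs of cycling-high and 41.9% of cycling-low cells of this class in WT, and 31.7% and 63.4% in DKO. The part of maturation stage in the ratios of this class was not tested.

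**Figure D3:**
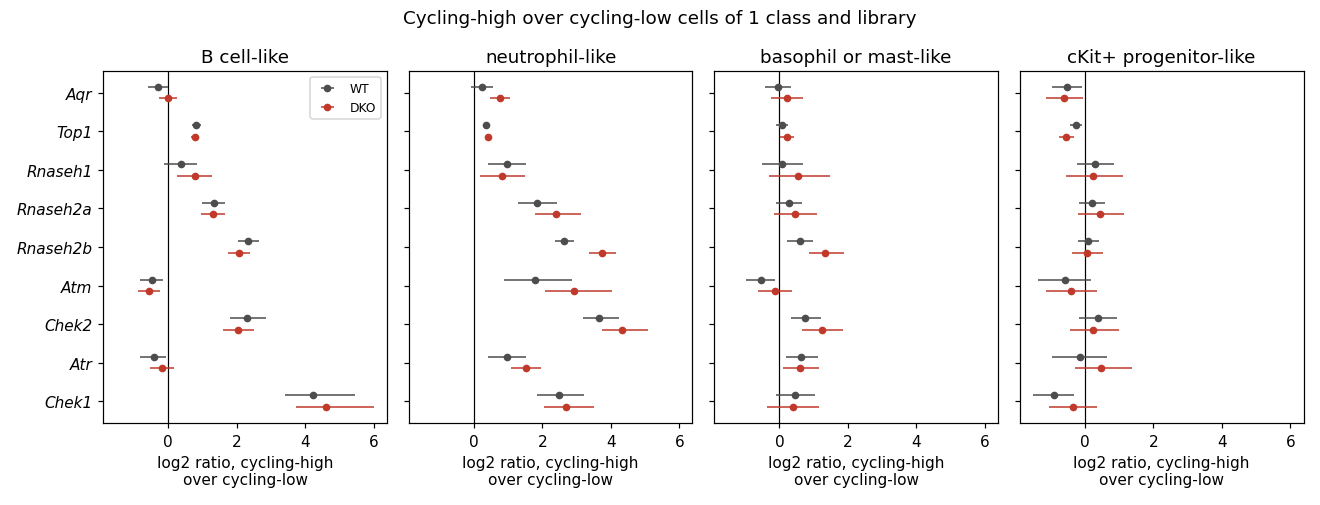
Log2 ratio of cycling-high over cycling-low cells for each gene in 4 cell classes, WT in grey and DKO in red, with exact conditional binomial 95% intervals, where the vertical line marks no difference, and the classes are B cell-like, neutrophil-like, basophil or mast-like and cKit+ progenitor-like. In B cell-like cells Chek1, Chek2, Rnaseh2a and Rnaseh2b lie to the right and Atm to the left in both libraries.

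Promoter sequences from RefSeq (GRCm38.p6, 250 bases before to 50 after the start site, on the strand of the gene) were at hand for 7 of the 9 genes. Those of 3 of the 4 genes with a log2 ratio above 1 in cycling-high B cell-like cells are shown, so that their letters can be read. E2F, the factor family that drives S-phase genes, was searched as TTTCCCGC, TTTGGCGC, TTTGCCGC or TTTCGCGC on either strand, letters held by 2.26% of 32851 promoters of this length. Capitals mark a match. The Chek2 window (chr5:110839733-110840032, plus strand) held 1 match, to TTTCCCGC on the other strand, with its first base at position -152 from the start site. The windows of Rnaseh2a (chr8:84966027-84966326, minus strand) and Chek1 (chr9:36726609-36726908, minus strand) held none, nor did those of Atm, Atr, Aqr and Top1. Only exact matches inside the window were counted, so near forms are missed. The Chek1 window ends in ttttggcgggaa, where tttggcgg differs from TTTGGCGC in its last letter. Its closing gcgggaa is all but the last letter of TTTCCCGC on the other strand, and the next base lies outside the window. In the Rnaseh2a window tttcgcgg differs from TTTCGCGC in its last letter. A cell cycle element, TTTGAA, was found on either strand in the Aqr window alone, and in 17.9% of all promoters.
Chek2: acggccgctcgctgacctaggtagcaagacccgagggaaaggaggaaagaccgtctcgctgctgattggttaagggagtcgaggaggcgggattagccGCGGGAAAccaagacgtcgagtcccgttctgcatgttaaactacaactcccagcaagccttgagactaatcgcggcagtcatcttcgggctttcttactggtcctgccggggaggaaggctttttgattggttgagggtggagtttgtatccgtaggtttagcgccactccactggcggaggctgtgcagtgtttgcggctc
Rnaseh2a: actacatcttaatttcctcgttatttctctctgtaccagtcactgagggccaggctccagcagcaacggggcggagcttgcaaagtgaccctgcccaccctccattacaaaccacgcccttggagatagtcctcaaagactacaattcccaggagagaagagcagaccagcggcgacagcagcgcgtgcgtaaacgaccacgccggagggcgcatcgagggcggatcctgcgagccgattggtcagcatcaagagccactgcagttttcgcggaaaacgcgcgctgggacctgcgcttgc
Chek1: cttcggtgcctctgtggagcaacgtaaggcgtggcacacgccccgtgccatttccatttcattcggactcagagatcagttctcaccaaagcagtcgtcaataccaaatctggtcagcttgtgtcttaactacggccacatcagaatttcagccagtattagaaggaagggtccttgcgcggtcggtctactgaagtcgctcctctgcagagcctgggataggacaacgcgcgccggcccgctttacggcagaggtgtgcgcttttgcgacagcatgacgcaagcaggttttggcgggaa

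Over all cells, Rnaseh1 was the member that differed most between the libraries. It was at 11.7 CPM (1386 UMIs, interval 11.1 to 12.3) in WT and 7.1 CPM (815 UMIs, interval 6.62 to 7.60) in DKO cells, that is 1.65-fold lower in DKO (log2 -0.72, interval -0.85 to -0.59). It was the only 1 of the 9 members past 1.5-fold in either direction, a size that 18.3% of the 15480 genes with at least 50 UMIs also passed, with 14.5% past it downward. The median log2 ratio of all these genes was -0.14, and it was 0.02 without hemoglobin genes in the total. On that second scale Rnaseh1 was at 16.4 CPM in WT and 11.1 CPM in DKO cells, a log2 ratio of -0.55, below 1.5-fold. The sum over all cells includes the 2 unnamed clusters, and the cell make-up differed between the libraries. The unnamed clusters held 3.99% and 4.66% of WT cells but 2.12% and 7.76% of DKO cells, and cKit+ progenitor-like cells 1.55% and 0.845%. The part of the cell make-up in the ratios over all cells was not tested.

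Among the other R-loop enzymes, the log2 ratio was -0.31 for Rnaseh2a (3257 and 2540 UMIs, interval -0.39 to -0.24) and -0.22 for Rnaseh2b (5477 and 4543 UMIs, interval -0.28 to -0.17), which were -0.15 and -0.06 without hemoglobin. Aqr had -0.10 (interval -0.17 to -0.02), which turned to 0.07 without hemoglobin, and Top1 0.10 (interval 0.07 to 0.12). The 4 kinases lay between -0.06 for Atm and 0.14 for Chek2, with Atr at 0.00 and Chek1 at -0.01, and Atm and Chek1 turned to 0.11 and 0.16 without hemoglobin.

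By class, the log2 ratio of Rnaseh1 was below 0 in 8 of the 9 classes with at least 50 of its UMIs and in 12 of all 13. Its interval was wholly below 0 in 2 of them. It was -0.62 (interval -0.99 to -0.24, 127 and 119 UMIs) in early erythroid-like cells, the only 1 member past 1.5-fold there, where 9.33% of genes were past it downward, and -0.44 (interval -0.86 to -0.03) in neutrophil-like cells. In B cell-like cells it was -0.21 (interval -0.55 to 0.13), in cKit+ progenitor-like cells -0.15 (interval -0.64 to 0.30), and in T or NK cell-like cells 0.10 (interval -0.63 to 0.79). Without hemoglobin, Rnaseh1 in early erythroid-like cells was at 10.9 and 7.55 CPM, both below the 18.7 CPM of the WT free RNA, and the part of free RNA in this ratio was not tested. On that scale, cycling-high early erythroid-like cells held 9.15 CPM in WT (98 UMIs, interval 7.43 to 11.2) and 7.67 CPM in DKO (115 UMIs, interval 6.33 to 9.21). The few cycling-low cells of the class held 31.2 CPM in WT (23 UMIs) and 5.68 CPM in DKO (3 UMIs). Rnaseh2a was below 0 in 9 of the 10 classes with at least 50 of its UMIs and in 12 of all 13. Its interval was wholly below 0 in 4, among them early erythroid-like (-0.26, interval -0.37 to -0.14), cKit+ progenitor-like (-0.49, interval -0.86 to -0.14) and basophil or mast-like cells (-0.59, interval -0.97 to -0.25, with 4.32% of genes past 1.5-fold downward there). Rnaseh2b was -0.21 (interval -0.30 to -0.12) in early erythroid-like and -0.05 (interval -0.25 to 0.15) in B cell-like cells. All these classes share 1 library per genotype, so their directions are not independent of each other.

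**Figure D4:**
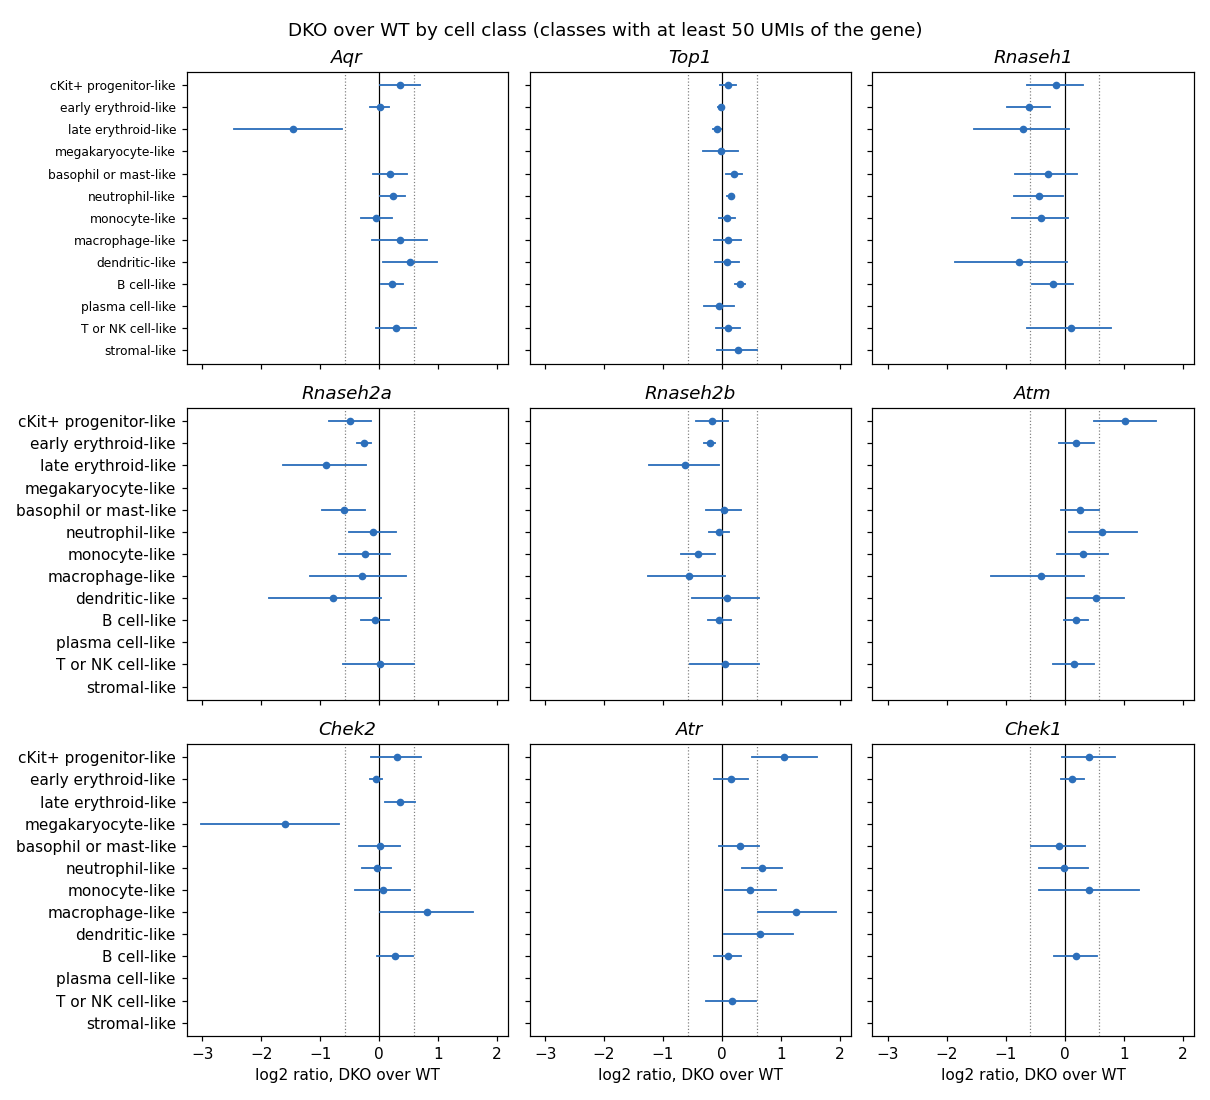
Log2 ratio of DKO over WT for each gene in each class with at least 50 UMIs of that gene over both libraries, with exact conditional binomial 95% intervals; the solid line marks 0 and the dotted lines 1.5-fold. Rnaseh1 and Rnaseh2a lie mostly left of 0, all 9 values of Atr lie right of it, and Top1 stays within the dotted lines in all 13 classes.

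Atr and Atm were higher in DKO in several myeloid and progenitor classes. Atr had a log2 ratio above 0 in 9 of the 9 classes with at least 50 of its UMIs, and Atm in 8 of 9. Over all 13 classes each was above 0 in 11. In cKit+ progenitor-like cells Atm was at 11.9 CPM (61 UMIs) in WT and 24.1 CPM (66 UMIs) in DKO cells (log2 1.02, interval 0.50 to 1.55), and Atr at 10.9 CPM (56 UMIs) and 22.7 CPM (62 UMIs), with a log2 ratio of 1.06 (interval 0.51 to 1.61). These were 2 of 9 members past 1.5-fold upward, as 22.1% of all genes were in this class of 289 WT and 116 DKO cells. In neutrophil-like cells Atm (log2 0.63, interval 0.06 to 1.23) and Atr (log2 0.68, interval 0.34 to 1.02) were again the 2 members past 1.5-fold upward, where 6.54% of genes were. Atr was also past it in macrophage-like cells (log2 1.25, interval 0.60 to 1.93, 35 and 48 UMIs), where Chek2 was too (log2 0.81, interval 0.01 to 1.60) and 8.77% of genes were, and in dendritic-like cells (log2 0.64, 65 and 44 UMIs), where 12.7% were. In dendritic-like cells Rnaseh1 and Rnaseh2a, at 54 WT and 13 DKO UMIs each, were past it downward (log2 -0.78, interval -1.86 to 0.03), as were 5.65% of genes. The macrophage-like class pools a cluster led by C1qa, C1qc and C1qb with another whose leading genes include Mertk, Cd209a, H2-Eb1 and H2-Ab1. The latter held 1715738 of the 2709869 WT UMIs and 1041140 of the 1550007 DKO UMIs of the class. The part of each cluster in the macrophage-like ratios was not tested. In early erythroid-like cells Atm (log2 0.19, interval -0.10 to 0.49) and Atr (0.15, interval -0.14 to 0.44) had intervals that include 0. Without hemoglobin, the WT free RNA held 19.0 CPM of Atm and 15.5 CPM of Atr. Neutrophil-like cells lay below it, with 2.33 and 6.46 CPM in WT and 3.65 and 10.4 CPM in DKO. WT cKit+ progenitor-like cells also lay below it (12.003 and 11.019 CPM), and the DKO ones lay above it (24.52 and 23.03 CPM). The part of free RNA in these ratios was not tested.

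Top1 and Chek1 stayed within 1.5-fold in the classes where they could be read, and Chek2 did not. Top1 was within 1.5-fold in all 13 classes, from -0.08 (interval -0.15 to -0.01) in late erythroid-like to 0.30 (interval 0.22 to 0.38) in B cell-like cells. Chek1 lay between -0.09 and 0.41 over the 6 classes with at least 50 of its UMIs, each with an interval that includes 0. Chek2 was at 40.3 CPM (62 UMIs) in WT and 12 CPM (8 UMIs) in DKO megakaryocyte-like cells, with a log2 ratio of -1.60 (interval -3.02 to -0.68), where 11.2% of genes were past 1.5-fold downward, and the summed level of the 38 cycling genes there was 2031 CPM in WT and 638 CPM in DKO cells. In B cell-like cells 0 of 9 members passed 1.5-fold, against 7.88% of genes. In monocyte-like cells it was also 0 of 9, against 13.1%. In T or NK cell-like cells it was 0 of the 7 members with at least 50 UMIs, against 18.2%. Top1 alone had 50 UMIs in plasma cell-like and stromal-like cells and did not pass, where 32.8% and 37.2% of genes did.

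In late erythroid-like cells Aqr (38 and 16 UMIs), Rnaseh1 (33 and 24), Rnaseh2a (47 and 30) and Rnaseh2b (57 and 44) were past 1.5-fold downward, 4 of 6 members with at least 50 UMIs. In this class 61.5% of all genes were, and the median log2 ratio of all genes was -0.76, so the share of members was near that background. Without hemoglobin in the total, 2 members were past it downward, Aqr (-1.17) and Rnaseh2a (-0.60), and 1 upward, Chek2 (0.65), with a median of all genes of -0.46. Rnaseh2a and Rnaseh2b turned upward when the classes were divided at 40% hemoglobin (log2 0.33 and 0.45).

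The ratio of DKO over WT ran with gene length in these libraries, and the members differ in length. Genes were placed in 10 groups of equal size by annotated length (GENCODE M21, GRCm38). Over all cells the median log2 ratio was -0.33 in the shortest group and 0.04 in the ninth, and in neutrophil-like cells it was -0.15 and 0.29. Rnaseh1 (chr12:28649602-28659589, plus strand) spans 9988 bases, Rnaseh2a (chr8:84956610-84969767, minus strand) 13158, Atr (chr9:95857597-95951781, plus strand) 94185 and Atm (chr9:53439149-53536740, minus strand) 97592. With the median of genes of like length subtracted, Rnaseh1 went from -0.72 to -0.43 over all cells and from -0.62 to -0.44 in early erythroid-like cells, and Rnaseh2a from -0.31 to -0.09 over all cells. Atm went from 0.63 to 0.34 and Atr from 0.68 to 0.38 in neutrophil-like cells. In cKit+ progenitor-like cells, where the subtraction was added after the values had been seen, Atm went from 1.02 to 0.46 and Atr from 1.06 to 0.50. None of these values passed 1.5-fold after the subtraction, while Atr at 0.96 and Chek2 at 0.70 did in macrophage-like cells, where it was likewise added later.

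**Figure D5:**
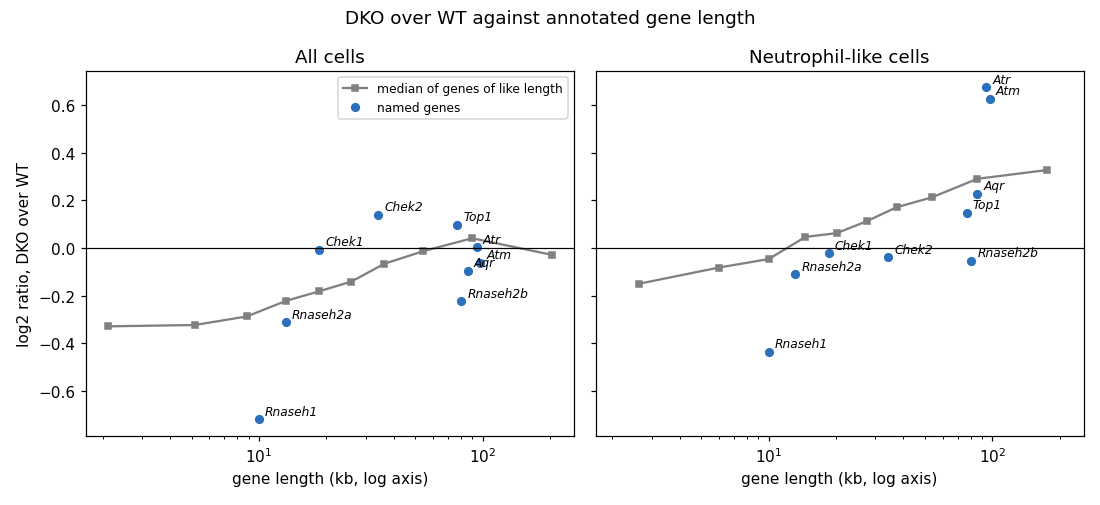
Log2 ratio of DKO over WT (vertical axis) against annotated gene length in kb (log axis) over all cells and in neutrophil-like cells; grey squares are medians of 10 groups of genes by length and blue points the 9 named genes. The medians climb with length, and Rnaseh1 lies below the grey line in both panels while Atm and Atr lie above it in neutrophil-like cells.

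Within neutrophil-like cells the ratios of Atm and Atr were larger in cycling-high cells. There, on the scale without hemoglobin, Atm was at 4.45 CPM (28 UMIs) in WT and 8.33 CPM (54 UMIs) in DKO cells (log2 0.88, interval 0.22 to 1.62) and Atr at 9.54 and 17.9 CPM (log2 0.90, interval 0.45 to 1.38). In cycling-low neutrophil-like cells Atm had 15 and 12 UMIs (log2 -0.23, interval -1.48 to 0.94) and Atr a log2 ratio of 0.35 (interval -0.16 to 0.87), and the difference between both kinds of cells was not tested. The WT levels of Atm and Atr in cycling-high and cycling-low neutrophil-like cells lay below those of the WT free RNA. The part of free RNA in these ratios was not tested. Rnaseh1 was lower in DKO in both, over all cells, with log2 -0.51 (interval -0.68 to -0.35) in cycling-high and -0.60 (interval -0.80 to -0.41) in cycling-low cells. Rnaseh2a over all cells was -0.04 (interval -0.13 to 0.05) in cycling-high and -0.68 (interval -0.85 to -0.52) in cycling-low cells. Cells of all classes are pooled in these values, and late erythroid-like cells were 779 of 9018 WT but 964 of 6926 DKO cycling-low cells. The part of the cell make-up in these pooled ratios was not tested.

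In all, 7 lists of genes around the members were compared in the same way. Over all cells 18.3% of all genes were past 1.5-fold in either direction, and 14.5% were past it downward. In early erythroid-like cells 9.33% were past it downward and 2.68% upward. Of 15 further R-loop processing genes, 0 were past 1.5-fold over all cells or in early erythroid-like cells. The lowest over all cells were Xrn2, an exonuclease of transcription termination (77.9 and 57.0 CPM, log2 -0.45), and Rnaseh2c, the third subunit of ribonuclease H2 (155 and 114 CPM, log2 -0.45), and the highest were Fancm, a Fanconi anemia helicase (log2 0.34), and the splicing factor Srsf1 (log2 0.18). Of 8 topoisomerases and their repair enzymes, 1 was past it downward, the mitochondrial Top1mt (3.53 and 1.94 CPM, log2 -0.86), and Top2a was at 282 and 330 CPM (log2 0.23). Of 7 G4 helicases, Ddx41 alone was past it, while Blm was at 38.5 and 45.4 CPM (log2 0.24). Of 17 genes of the ATR and CHK1 axis 0 were past 1.5-fold over all cells, with Rad1, a part of the clamp that loads at stalled forks, the lowest (8.35 and 5.63 CPM, log2 -0.57) and the phosphatase Cdc25b the highest (50.7 and 71.7 CPM, log2 0.50).

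Of 13 genes of the ATM and CHK2 axis, 0 were past it over all cells and 1 in early erythroid-like cells, Trp53bp1, the adaptor 53BP1 at double-strand breaks, which was at 17.9 CPM (295 UMIs) in WT and 30.7 CPM (730 UMIs) in DKO cells (log2 0.78). H2afx, the histone that ATM phosphorylates at breaks, was at 450 and 334 CPM there (log2 -0.43). Of 14 double-strand break repair genes 0 were past it over all cells, from Xrcc4 (log2 -0.09) to Lig4 (log2 0.45), a ligase of end joining. Of the 11 p53 genes with 50 UMIs 1 was past it over all cells, where 14.5% of all genes were past it downward. This was Bax, which permeabilizes mitochondria in apoptosis, at 84.7 and 47.5 CPM (log2 -0.83). In early erythroid-like cells Bbc3, which encodes PUMA, was past 1.5-fold downward (10.2 and 5.81 CPM, log2 -0.81), as 9.33% of all genes were. Zmat3 was past 1.5-fold upward there, as Trp53bp1 was and as were 2.68% of all genes. The median log2 ratio of the lists over all cells ran from -0.36 for the p53 genes to 0.12 for the G4 helicases, against -0.14 for all genes. In cKit+ progenitor-like cells 5 of 13 double-strand break repair genes with at least 50 UMIs were past 1.5-fold upward, namely Prkdc, Dclre1c, Nhej1, Brca2 and Palb2, as were 4 of 7 G4 helicases (Pif1, Wrn, Rtel1 and Brip1) and 4 of 13 genes of the ATM and CHK2 axis, against 22.1% of all genes there. It was 2 of 14 R-loop processing genes, 2 of 15 genes of the ATR and CHK1 axis, 1 of 8 topoisomerases and their repair enzymes and 0 of 5 p53 genes. Gene length is not taken out of these counts, and the 22.1% is over genes of all lengths. Subtracting the median of genes of like length in this class took the long Atm from 1.02 to 0.46. It took the short Rnaseh1 from -0.15 to -0.06. The part of gene length in the list counts was not tested.

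Across the 26 sums of class and library, the genes whose level ran most like Chek1 included Exo1 and Chaf1b (Pearson r 0.95 and 0.94), which act in DNA end resection and chromatin assembly. Rnaseh2b ran most like Gins4 (0.97), a subunit of the replicative helicase, and Atad2 and Hat1 (0.96 each), and Chek2 most like Kif24 (0.91), Blm and E2f8 (0.89 and 0.88). Atm ran most like Tut1, Nol8 and Prps2 (0.97, 0.95 and 0.95), Atr like Bcor, Ttll4 and Zkscan1 (0.96, 0.95 and 0.94), and Aqr like Wdr70, Sdha and Vps16 (0.98, 0.97 and 0.97). Rnaseh1 ran most like Gtf3a, Rsl24d1 and Brms1 (0.97, 0.94 and 0.94), Rnaseh2a like Eef1e1, Timm8a1 and 1110038B12Rik (0.94, 0.93 and 0.93), and Top1 like Cars, Atf4 and Rpia (0.88, 0.85 and 0.84). These correlations are over log2 levels with 5 CPM added, among 10833 genes, and their points share 2 libraries, depth and hemoglobin content.

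In the annotation Rnaseh2a overlaps Prdx2, a peroxiredoxin on the other strand that was at 3316 CPM in WT and 2984 CPM in DKO early erythroid-like cells, and Gm49661 on its own strand. Atr overlaps 2 antisense genes and 1 small RNA gene, Rnaseh2b overlaps Dleu7 on the other strand and Aqr a microRNA gene, and how reads in such overlaps were assigned is not given in the sources used here. Top1, Rnaseh1, Atm, Chek1 and Chek2 overlap no other gene.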

How the data were processed

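Bone marrow cells of 1 WT and 1 DKO mouse were sequenced with a 10x 3' v3 kit. The authors made the deposited UMI counts with Cell Ranger, version 7.1.0 per the file headers, and the submitters' processing notes name the build mm10. The WT matrix held 1194299 barcodes with a UMI and the DKO matrix 14142 called barcodes. WT cells were called by a UMI threshold (among the 3000 largest barcodes, a 10th of the 99th percentile) and, from 500 UMIs, a Monte Carlo multinomial test against barcodes of at most 100 UMIs (10000 simulations, false discovery rate 0.01). Cells above 20% mitochondrial UMIs (172 WT, 215 DKO) and doublets marked by Scrublet (410 and 198) were left out. Counts scaled to 10000 per cell were clustered with scanpy 1.11.5, with the 9 members, Ddx41 and Cgas kept out of the variable genes.

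UMIs were summed per class and library. A gene was called at 1.5-fold among genes with at least 50 UMIs over both libraries. No test was made, as each genotype had 1 library. The members and lists were chosen with earlier results of these data known. The minimum of 1000 UMIs for cycling calls was set later. Named genes were chosen among the members, Ddx41 and Cgas, per list the 2 highest and 2 lowest ratios among genes with at least 200 UMIs over all cells and in early erythroid-like cells, and the 3 genes most like each member among genes of at least 20 CPM. Not every gene that this rule picks is printed, and 1 of those most like a member is not reported here. Other genes named as past 1.5-fold, and Prdx2, were chosen after their values were seen. In simulated libraries of all cells (15480 genes) 95.4% of intervals covered the true ratio. Python 3.11.15, numpy 2.4.6, scipy 1.17.1 and pandas 2.3.3 were used.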

Additional observations from a re-analysis of the deposited data

How the results depend on the processing

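No paired analysis was possible because each genotype had 1 library and none could be left out. Under 13 alternatives the count of members past 1.5-fold was within 1.5 times the main one in 39 of 61 cases. Over all cells it went from 1 to 0 without hemoglobin in the scaling, with the length trend taken out, or at 2-fold. In early erythroid-like cells it went from 1 to 0 without hemoglobin, without hemoglobin, ribosomal protein and mitochondrial genes, with doublets kept, with cells thinned to 2000 UMIs (Rnaseh1 was then at -0.38 on 17 WT and 12 DKO UMIs, under the minimum of 50, which says nothing of depth), with erythroid cells split at 40% hemoglobin, with the length trend taken out, or at 2-fold. In late erythroid-like cells it went from 4 to 1 with threshold barcodes only or at 2-fold, and to 2 with doublets kept, with the mean of per-cell CPM, with the 40% split, or with the length trend taken out. In neutrophil-like cells it went from 2 to 1 with doublets kept, 5 counts added or Leiden resolution 2.0, and to 0 with the mean of per-cell CPM, the length trend taken out, or at 2-fold. Thinning left the neutrophil-like count at 2 but with other calls, Rnaseh2a (-0.95 on 24 and 11 UMIs) and Atm, both downward, while Atr was at 0.46 (25 and 32 UMIs), under 1.5-fold. In B cell-like cells it was 0 throughout.

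Ratios of members past 1.5-fold changed sign in 6 cases. Smaller ratios that changed sign, such as those of Aqr, Atm and Chek1 over all cells and Top1 in both erythroid classes without hemoglobin, are not among these. In late erythroid-like cells Rnaseh2b became 0.16 with the mean of per-cell CPM, 0.45 with the 40% split and 0.024 with the length trend taken out, Rnaseh2a became 0.33 with the 40% split, and Rnaseh1 became 0.13 with the length trend taken out. In neutrophil-like cells Atm became -0.59 with cells thinned, on 12 WT and 7 DKO UMIs. The causes were not tested. The length subtraction in cKit+ progenitor-like and macrophage-like cells was chosen after seeing the data.

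Depth limits the class values: Atm had 43 WT UMIs in neutrophil-like cells, and in plasma cell-like, megakaryocyte-like and stromal-like cells only 1, 2 and 1 of the 9 members reached 50 UMIs. The spread between mice is unknown.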
